A study of Mus musculus with 6 samples.

Results

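The 9 genes described here encode plasminogen activators and their receptor (Plau, Plat and Plaur), 2 serpins (Serpine2 and Serpinf1) and 4 cysteine cathepsins (Ctsb, Ctsk, Ctsl and Ctss). They were taken by name from the 53801 genes of the count table, and all 9 passed the filter on low counts that left 15133 genes to be tested. Expression was measured by RNA-seq in 6 libraries of cells bearing podoplanin (PDPN) and PDGF receptor alpha (PDGFRα), sorted from subcutaneous MO5 melanomas, a B16-derived mouse line expressing ovalbumin. The 3 DTR libraries came from C57Bl/6 mice with the ADAM12-DTR transgene, in which a bacterial artificial chromosome carrying the Adam12 promoter drives the diphtheria toxin receptor, so that diphtheria toxin (DT) kills cells in which that promoter is active. The 3 Ctrl libraries came from littermates lacking the transgene. DT was given to both groups, so the groups differ in the transgene and not in the toxin, and no library analysed here came from mice without DT. Dead cells and cells bearing CD45 or CD31 were excluded in the sort, and the comparison asks how the PDPN+PDGFRα+ cells that remained after depletion differed from those of Ctrl tumours.

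Plasminogen activators cut the zymogen plasminogen into plasmin, a broad serine protease that dissolves fibrin and frees growth factors from the matrix. The urokinase-type activator, encoded by Plau, works at the cell surface when bound to its receptor, encoded by Plaur, whereas the tissue-type activator, encoded by Plat, is best known for fibrin clearance. Protease nexin 1, the product of Serpine2, is a serpin that traps both activators and thrombin, and pigment epithelium-derived factor, the product of Serpinf1, is a secreted serpin without protease inhibition that restrains vessel growth. Cysteine cathepsins digest proteins in lysosomes and, when secreted, in the matrix. Fibroblasts of tumours are known sources of activators, serpins and cathepsins alike.

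The libraries held 22339635 to 34271929 counts. The defining markers of the sort were present in every library, Pdgfra at 42.7 to 132 CPM (counts scaled to a library total adjusted by TMM) and Pdpn at 46.0 to 99.2 CPM. All 10 fibroblast markers were counted, and their summed level was 13691, 5251 and 5217 CPM in Ctrl replicates 1 to 3 and 10880, 5611 and 14170 CPM in the DTR libraries. All 12 melanoma markers, headed by the pigment enzyme gene Dct, were also counted. Their sum was 17952, 21051 and 20240 CPM in Ctrl replicates 1 to 3 and 17668, 19906 and 16874 CPM in the DTR libraries. In every library it exceeded the fibroblast sum, so levels given here are those of whole samples and not of fibroblasts alone. These sums do not give shares of cells. All 15 macrophage markers were counted, headed by Lyz2, at 147 to 249 CPM in Ctrl and 174 to 185 CPM in DTR. All 10 endothelial markers, headed by Tek, summed to 27.7 to 35.0 CPM in Ctrl and 34.2 to 102 CPM in DTR. Adam12, whose promoter drives the receptor, was at 175 to 216 CPM in Ctrl and 112 to 165 CPM in DTR, without overlap. Of all genes tested, 8.18% had lower groups without overlap. The log2 fold change of Adam12 was −0.42 (SE 0.154), which did not pass edgeR's quasi-likelihood test (adjusted p = 0.602). It was −0.27 without DTR replicate 3 and −0.17 without Ctrl replicate 1 and DTR replicate 3 together.

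No difference between DTR and Ctrl passed the test for any of the 9 genes. At an adjusted p under 0.05 (Benjamini-Hochberg), 0 of 9 were called by edgeR's quasi-likelihood test, where 0% of all 15133 genes were called, and 0 of 9 had an unadjusted p under 0.05, where 7.92% of all genes did. DESeq2 also called 0 of 9, where it called 0.151% of the genes it tested. By limma voom 0 of 9 were called, where 0 of all genes were. The adjusted p by edgeR ran from 0.699 for Plat to 0.954 for Plaur. In each of the 9 genes the CPM of the groups overlapped, whereas 14.5% of all genes had groups without overlap, 8.18% lower and 6.32% higher in DTR. Two-sided exact permutation tests on log2 CPM, 1 for each of the 9 genes, gave p from 0.3 to 1.0, and the smallest p that 3 libraries against 3 allow is 0.1. The log2 fold change was above 0 for 7 genes and below 0 for Serpine2 and Ctsb, with a median of 0.19 beside −0.0029 over all genes tested. That median was 0.014 without DTR replicate 3, 0.46 without Ctrl replicate 1 and −0.0056 with the summed fibroblast markers as a covariate, and those markers themselves had a log2 ratio of mean DTR to mean Ctrl of 0.34. In such bulk samples fewer cells of a type and less RNA per cell cannot be told apart, and the labels do not say whether libraries of a group came from separate tumours, so the p-values measure the spread between these libraries alone.

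**Figure D1:**
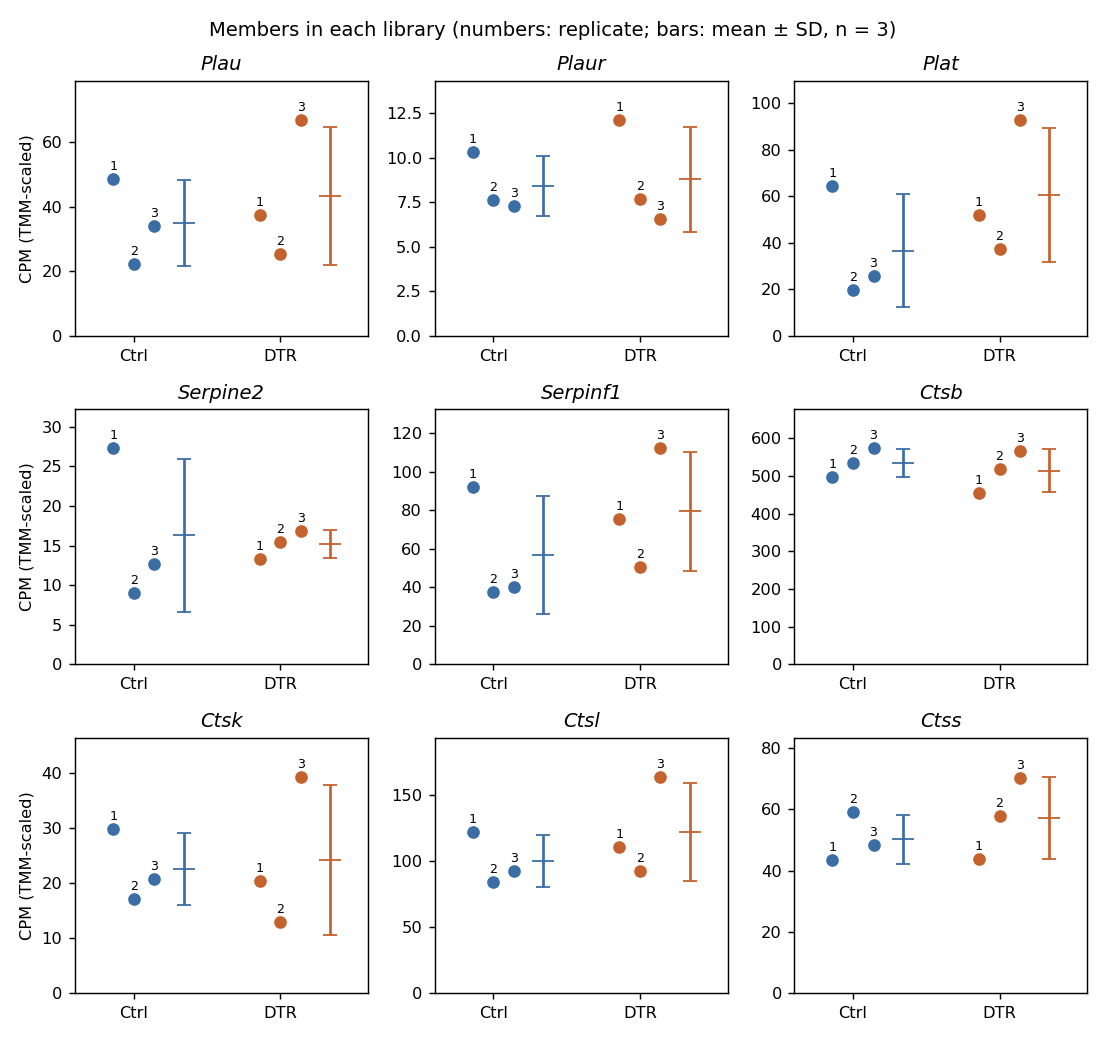
Level of each gene in the 6 libraries, in CPM on linear axes from 0, with 1 numbered point for each library and bars for the mean ± SD of each group (n = 3). The points of Ctrl and DTR overlap in all 9 panels, and those of Ctsb lie closest together, between 454 and 573 CPM.

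Of the activators, Plau (chr14:20836660-20843385, plus strand, GRCm38) was counted at 48.5, 22.2 and 34.1 CPM in Ctrl replicates 1 to 3 and at 37.5, 25.3 and 66.8 CPM in the DTR libraries. The highest DTR library exceeded every Ctrl library, but the other two lay within the Ctrl range. The means were 34.9 ± 13.2 CPM in Ctrl and 43.2 ± 21.3 CPM in DTR (SD, n = 3), and the log2 fold change was 0.30 (SE 0.379, adjusted p = 0.844, edgeR's quasi-likelihood test). It was −0.15 without DTR replicate 3 and above 0 without any other single library.

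Plat (chr8:22757727-22782844, plus strand), the gene of the tissue-type activator, was at 64.5, 19.8 and 25.7 CPM in Ctrl and at 51.9, 37.1 and 92.7 CPM in DTR. All 3 DTR libraries lay above Ctrl replicates 2 and 3, while Ctrl replicate 1 lay above 2 of the 3 DTR libraries. Its log2 fold change of 0.72 was the largest of the 9 genes, and the 95% interval reached from −0.38 to 1.82, or from 0.770-fold to 3.54-fold (SE 0.477, adjusted p = 0.699, edgeR's quasi-likelihood test). Without Ctrl replicate 1 the log2 fold change of Plat was 1.41, with an unadjusted p of 0.0063 and an adjusted p of 0.582 by the same test, whereas it was 0.28 (adjusted p = 0.957) without DTR replicate 3 and 0.42 without Ctrl replicate 2. Plat also had the widest spread of the 9 genes, with a highest library 4.68 times the lowest, a ratio larger than that of 98.1% of the 8785 genes with a mean of at least 10 CPM.

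The receptor gene Plaur (chr7:24462484-24475968, plus strand) was at 10.3, 7.62 and 7.28 CPM in Ctrl and at 12.1, 7.67 and 6.57 CPM in DTR. The DTR libraries held both its highest and its lowest value, a pattern unlike that of the activators, which were highest in DTR replicate 3. The means were 8.41 ± 1.67 CPM and 8.79 ± 2.94 CPM (SD, n = 3), and the log2 fold change was 0.07 (SE 0.271, adjusted p = 0.954, edgeR's quasi-likelihood test). Leaving out 1 library at a time moved it between −0.23, without DTR replicate 1, and 0.24, without Ctrl replicate 1.

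The promoter of Plaur is printed because the highest library of the receptor gene, DTR replicate 1, was not that of its activators. Here and below a promoter is the run from 250 bases before to 50 bases after the RefSeq start site on GRCm38.p6, read 5′ to 3′ on the strand of the gene. Capitals mark matches to the motifs AP-1 (TGANTCA), the GC box (GGGCGG) and PU.1 (GAGGAAG), and positions are those of the first base, with −1 just before the start site.
Plaur promoter (chr7:24462233-24462532, plus strand): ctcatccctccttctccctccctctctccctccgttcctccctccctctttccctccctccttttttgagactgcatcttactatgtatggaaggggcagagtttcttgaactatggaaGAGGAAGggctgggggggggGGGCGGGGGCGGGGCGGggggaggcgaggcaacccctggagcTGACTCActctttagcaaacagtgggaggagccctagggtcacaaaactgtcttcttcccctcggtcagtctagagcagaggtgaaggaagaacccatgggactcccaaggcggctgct
The AP-1 match begins at −69, the PU.1 match at −131 and the 3 GC boxes, whose neighbours overlap by a base at most, at −111, −105 and −100. With both strands searched, 7.81% of the 32851 mouse promoters of the same length hold the AP-1 motif, 35.7% the GC box and 13.6% the PU.1 motif. A match describes letters only, and the motifs were chosen after the sequences had been seen.

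Of the serpins, Serpine2 (chr1:79794197-79861180, minus strand) was at 27.3, 9.0 and 12.7 CPM in Ctrl and at 13.3, 15.5 and 16.8 CPM in DTR. The DTR libraries lay close together, and the Ctrl libraries held both extremes. The SD was 9.67 CPM around a mean of 16.3 in Ctrl and 1.79 CPM around a mean of 15.2 in DTR (n = 3), a difference in spread that was not tested. The log2 fold change was −0.10 (SE 0.366, adjusted p = 0.949, edgeR's quasi-likelihood test), and it was 0.48 without Ctrl replicate 1 and 0.00081 without DTR replicate 1.

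Serpinf1 (chr11:75409769-75422701, minus strand) was at 92.0, 37.6 and 40.2 CPM in Ctrl and at 75.4, 50.7 and 112 CPM in DTR. As in Plat, every DTR library exceeded Ctrl replicates 2 and 3, and Ctrl replicate 1 exceeded 2 of the 3 DTR libraries. The means were 56.6 ± 30.7 CPM and 79.4 ± 30.8 CPM (SD, n = 3), and the log2 fold change was 0.49 with a 95% interval from −0.42 to 1.39 (SE 0.392, adjusted p = 0.752, edgeR's quasi-likelihood test). Without Ctrl replicate 1 the log2 fold change of Serpinf1 was 1.03, with an unadjusted p of 0.0108 and an adjusted p of 0.582 by the same test. The direction was positive with any single library left out, the lowest log2 fold change being 0.16 without DTR replicate 3. The promoter of Serpinf1 is printed because its level followed the fibroblast markers most closely of the 9 genes, with capitals at the hypoxia response core ACGTG.
Serpinf1 promoter (chr11:75422574-75422873, minus strand): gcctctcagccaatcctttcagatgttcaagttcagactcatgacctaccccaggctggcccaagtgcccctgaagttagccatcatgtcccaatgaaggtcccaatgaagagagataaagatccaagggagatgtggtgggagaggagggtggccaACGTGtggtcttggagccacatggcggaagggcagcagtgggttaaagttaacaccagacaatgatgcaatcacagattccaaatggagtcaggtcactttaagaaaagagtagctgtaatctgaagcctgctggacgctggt
That match begins at −93, and 19.6% of the promoters hold the same 5 letters on either strand. Of the 6 member promoters searched, that of Ctsl also held the core, at −235 and, on the opposite strand, at −236.

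**Figure D2:**
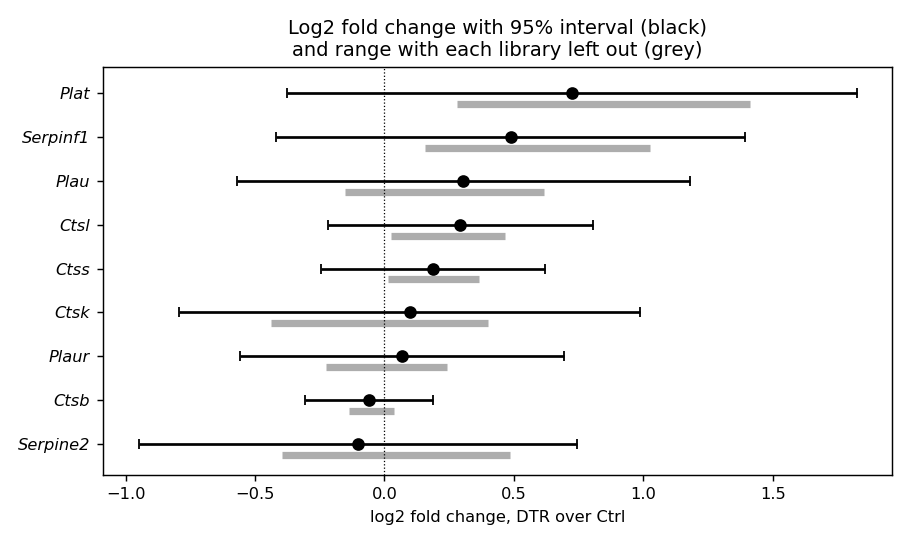
Log2 fold change of DTR over Ctrl for the 9 genes from edgeR, with black lines for the 95% interval and grey bars for the range with each library left out. Every interval crosses 0, and that of Ctsb, from −0.31 to 0.19, is the shortest.

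Of the cathepsins, Ctsb (chr14:63122462-63145923, plus strand), a lysosomal endo- and exopeptidase, was at 498, 534 and 573 CPM in Ctrl and at 454, 519 and 567 CPM in DTR. It was the member measured most precisely, with 12202 to 16302 counts in a library and a coefficient of variation of 8.48% over the 6 libraries. The log2 fold change of −0.06 (SE 0.107, adjusted p = 0.900, edgeR's quasi-likelihood test) had a 95% interval from 0.809-fold to 1.14-fold. The exons of Ctsb share 774 bases with Fdft1 on the other strand, and the counting was stated to use strand.

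Ctsl (chr13:64359337-64370890, minus strand), a lysosomal endopeptidase, was at 122, 84.5 and 92.9 CPM in Ctrl and at 111, 92.7 and 164 CPM in DTR. DTR replicate 3 was the highest library and Ctrl replicate 2 the lowest, and the remaining libraries interleaved. The log2 fold change was 0.29 with a 95% interval from −0.22 to 0.80 (SE 0.221, adjusted p = 0.735, edgeR's quasi-likelihood test). It was 0.026 without DTR replicate 3 and 0.46 without either Ctrl replicate 1 or DTR replicate 2. The exons of Ctsl share 395 bases with the pseudogene Gm49230 on the same strand, so that its counts are uncertain to that extent, and 1742 bases with the antisense gene Gm47123.

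Ctsk (chr3:95499256-95509362, plus strand), a collagen-cleaving cathepsin best known from osteoclasts, was at 29.7, 17.0 and 20.7 CPM in Ctrl and at 20.3, 12.9 and 39.2 CPM in DTR. The DTR libraries again held the highest and the lowest value. The log2 fold change was 0.10 (SE 0.385, adjusted p = 0.953, edgeR's quasi-likelihood test), and it was −0.44 without DTR replicate 3 and −0.068 without Ctrl replicate 2. Beside Ctsk, 5 of 6 osteoclast markers were counted, Calcr was at 0, and their sum, headed by Mmp9, was 7.14 to 13.2 CPM in Ctrl and 4.06 to 5.15 CPM in DTR. Of the 4 tested, Acp5 and Dcstamp lay above 0 on the log2 scale and Atp6v0d2 and Mmp9 below, and Mmp9, at −1.96, was called by DESeq2 (adjusted p = 0.0116) but not by edgeR's quasi-likelihood test (adjusted p = 0.602).

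Ctss (chr3:95526786-95556403, plus strand), the cathepsin that trims the invariant chain in antigen-presenting cells, was at 43.4, 59.0 and 48.3 CPM in Ctrl and at 43.7, 57.8 and 70.4 CPM in DTR. Its lowest library was Ctrl replicate 1, in which the other cathepsins apart from Ctsb were second highest. The log2 fold change was 0.19 with a 95% interval from −0.24 to 0.62 (SE 0.187, adjusted p = 0.798, edgeR's quasi-likelihood test). It was 0.014 without DTR replicate 3, 0.093 without Ctrl replicate 1, 0.32 without Ctrl replicate 2 and 0.36 without DTR replicate 1. As a sum, the macrophage markers were also lowest in Ctrl replicate 1, at 147 CPM, and they were highest in Ctrl replicate 2, at 249 CPM. In DTR replicate 3, where Ctss was highest, they stood at 178 CPM. Their part in the level of Ctss was not tested.

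Ctsk and Ctss are neighbours on chromosome 3, with 17423 bases between them. Their profiles over the libraries differed by a root mean square of 0.537 on the log2 scale. That is close to the median of 0.546 between Ctsk and all 8785 genes, and above the median of 0.296 for Ctss. Both promoters are printed because the genes are neighbours, with capitals at the GC box, at PU.1, at the interferon-stimulated response element (GAAA, any 2 bases, GAAA) and at TATAAA, on either strand.
Ctsk promoter (chr3:95498960-95499259, plus strand): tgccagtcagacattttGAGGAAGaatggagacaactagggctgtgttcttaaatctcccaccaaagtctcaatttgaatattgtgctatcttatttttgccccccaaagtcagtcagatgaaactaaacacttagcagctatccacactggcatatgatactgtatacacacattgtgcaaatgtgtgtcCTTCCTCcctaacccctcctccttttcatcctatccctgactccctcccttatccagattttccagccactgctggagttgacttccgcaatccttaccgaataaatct
Ctss promoter (chr3:95526536-95526835, plus strand): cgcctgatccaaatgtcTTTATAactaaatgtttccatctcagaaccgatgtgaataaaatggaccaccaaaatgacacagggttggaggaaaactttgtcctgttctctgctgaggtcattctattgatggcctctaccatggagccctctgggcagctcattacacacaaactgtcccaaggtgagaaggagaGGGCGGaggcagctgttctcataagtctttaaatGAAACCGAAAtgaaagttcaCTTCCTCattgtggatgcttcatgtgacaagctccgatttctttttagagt
The Ctsk promoter holds a PU.1 match at −233 and another at −59 on the opposite strand. The Ctss promoter holds a GC box at −55, the interferon element at −21, a PU.1 match from −1 on the opposite strand and TATAAA from −233 on the opposite strand. The interferon element is in 3.44% of the promoters and TATAAA in 13.6%.

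Levels of the 9 genes were compared per kilobase of annotated exon, as mean CPM per kilobase over the 6 libraries. Ctsb was highest at 86.6 ± 7.35 CPM per kilobase (SD, n = 6), and its lowest library exceeded the highest library of every other member. Ctss followed at 39.6 and Serpinf1 at 28.8 CPM per kilobase, with overlapping ranges. Ctsl, Plau and Ctsk stood at 17.1, 16.5 and 15.4 CPM per kilobase, and Ctsl lay above Plau in only 3 of 6 libraries, so that these neighbours did not differ beyond their spread. Plat at 7.79, Plaur at 3.29 and Serpine2 at 1.90 CPM per kilobase closed the order, each with a range that overlapped the next. With the longest transcript as the length the order of Plaur and Serpine2 was reversed, at 4.28 and 4.65 CPM per kilobase. Plau lay above Plat, and Plat above Plaur, in each of the 6 libraries.

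**Figure D3:**
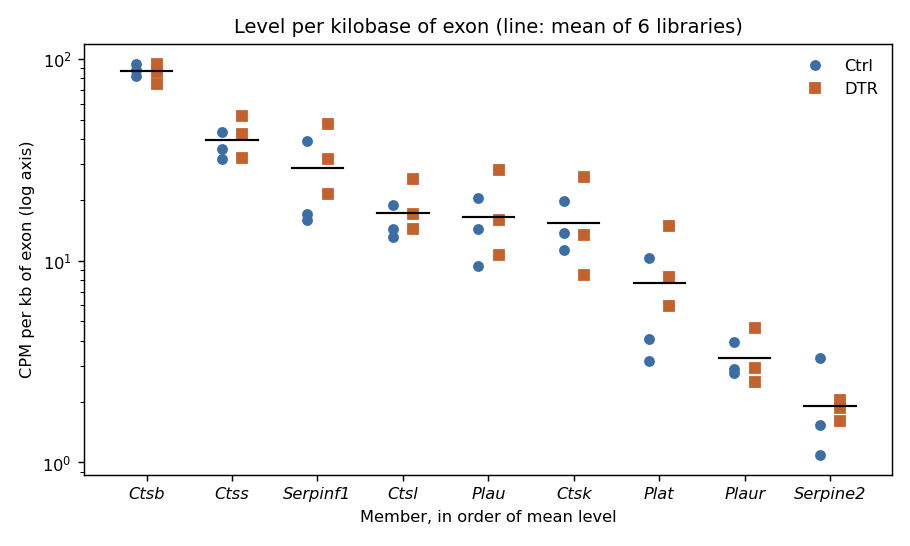
Level per kilobase of exon for the 9 genes in the 6 libraries, on a log axis in CPM per kilobase, with points for Ctrl, squares for DTR and a line at the mean of all 6. Ctsb, at 75.1 to 94.7 CPM per kilobase, is separate from the rest, and the ranges of the other neighbours overlap.

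The coefficient of variation over the 6 libraries ran from 8.48% for Ctsb to 55.9% for Plat, against a counting error of 0.905% to 8.19% at the lowest count of each gene. DTR replicate 3 was the highest library for 6 of 9 genes (Plau, Plat, Serpinf1, Ctsk, Ctsl and Ctss) and for 18% of the 8785 genes compared. Ctrl replicate 2 was the lowest for 5 of 9 (Plau, Plat, Serpine2, Serpinf1 and Ctsl) and for 15.5% of the 8785.

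DTR replicate 3 and Ctrl replicate 1 held the highest sums of fibroblast markers. Divided by that sum, the highest library of Serpinf1 was 1.35 times the lowest, where its level alone gave 2.98. The ratio for Plat was 1.76 in place of 4.68 and that for Plau 1.90 in place of 3.02. Ctsk and Serpine2 also narrowed, from 3.04 to 2.13 and from 3.03 to 2.32. The other 4 members did not, with Ctsb going from 1.26 to 3.02, Ctss from 1.62 to 3.55, Plaur from 1.85 to 3.13 and Ctsl from 1.94 to 2.00. The fibroblast sum itself ran from 5217 to 14170 CPM, so dividing by it widens the range of any gene with a flat level. With the fibroblast sum as a covariate, an alternative added after the data had been seen, the log2 fold change of Plat was 0.41 (SE 0.173, unadjusted p = 0.0436, adjusted p = 0.612, edgeR's quasi-likelihood test) and that of Serpinf1 0.20. The summed endothelial markers were also highest in DTR replicate 3, at 102 CPM against 27.7 to 47.6 CPM in the other libraries. Of the 6 endothelial markers tested, 5 had a log2 fold change above 0, and Cdh5 was at −1.53. The summed melanoma markers were lowest in DTR replicate 3, at 16874 CPM. The part of cell content in the members' values was not tested.

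**Figure D4:**
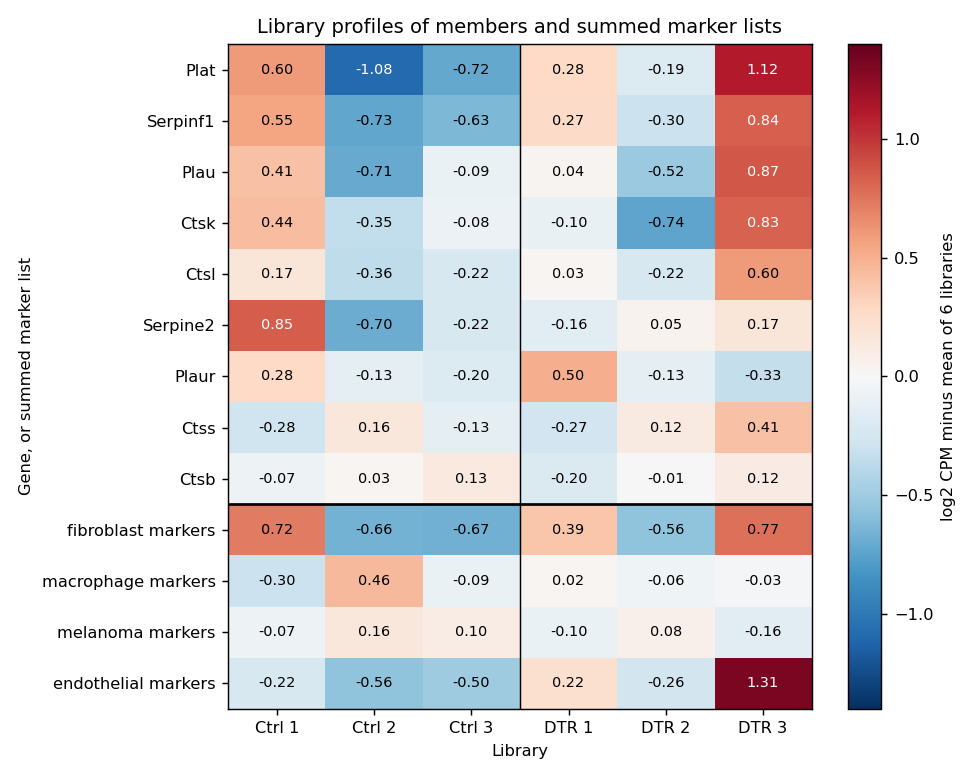
Profile of each gene over the 6 libraries as log2 CPM minus the gene's own mean, beside the summed fibroblast, macrophage, melanoma and endothelial markers treated alike. Plau, Plat, Serpinf1, Ctsk and Ctsl share high values in Ctrl replicate 1 and DTR replicate 3, and Ctsb is nearly flat, from −0.20 to 0.13.

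By the root mean square difference of log2 profiles centred on each gene, Plau and Ctsk differed by 0.183 and Plat and Serpinf1 by 0.194, and Plau and its receptor gene Plaur by 0.600. Ctsb and Ctss differed by 0.199, which is above the median difference of 0.186 between Ctsb and all 8785 genes, and Plat and Ctsb by 0.782, close to the median of 0.786 for Plat. Outside the members, the genes nearest to Plau were Thy1 at 0.0967, Ier5 and Nfkbia. The median difference from all genes was also 0.296 for Ctss, 0.327 for Plaur and 0.567 for Plau, so the differences are not comparable between members. The nearest to Plat were Tgfbr3 at 0.108, Fgfr1 and Epb41l3, and the nearest to Plaur were E2f7 at 0.0947, Troap and Grwd1. For the serpins these were Bgn at 0.0937, Cxxc5 and Col6a2 beside Serpine2, and Itgb5 at 0.105, Ehd2 and Emp1 beside Serpinf1. For the cathepsins they were Cdk9 at 0.0223, Pianp and Irak1bp1 beside Ctsb, Rarres2 at 0.120, Adm and Angptl2 beside Ctsk, Spsb1 at 0.0285, Oaf and Sestd1 beside Ctsl, and Sfi1 at 0.0384, Selenop and Akap13 beside Ctss. All genes were compared over the same 6 libraries, which differ in depth and in marker content, and these differences carry no test.

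No gene of the wider lists passed the test either. Of 10 tested genes for plasminogen activation and its receptors, 0 passed edgeR's quasi-likelihood test, 9 had a log2 fold change above 0, and the median was 0.15. The exception was Eno1, the glycolytic enolase that also binds plasminogen at the cell surface, at 580, 549 and 514 CPM in Ctrl and 456, 413 and 334 CPM in DTR. Its log2 fold change was −0.45 (SE 0.124, unadjusted p = 0.00691, adjusted p = 0.602), and its groups did not overlap, as in 8.18% of all genes on the lower side. Of 6 tested inhibitors of the activators and plasmin, 3 lay above 0 and 3 below, 0 passed the test, and the log2 fold changes ran from −0.28 for Serpinb2, a urokinase inhibitor, to 0.88 for Serping1, the complement inhibitor. Serping1 was at 418 CPM in DTR replicate 3 and 79.7 to 177 CPM in the other libraries, and its log2 fold change was 0.11 without that library. Serpinb2 was at 39.4 CPM in Ctrl replicate 1 and 4.68 CPM in Ctrl replicate 3, with the 3 DTR libraries between them. Plg, the plasminogen gene itself, had 0 to 9 counts in a library and was not tested.

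Of 18 tested serpins, 13 lay above 0 and 5 below, with a median of 0.18 and 0 past the test. The antithrombin gene Serpinc1 was at 0.408, 0.796 and 1.16 CPM in Ctrl and 2.59, 2.25 and 3.00 CPM in DTR, without overlap, from 10 to 89 counts a library. It was 1 of 18 serpins with higher groups without overlap, where 6.32% of all genes had them. Its log2 fold change of 1.72 (SE 0.456, unadjusted p = 0.00559, adjusted p = 0.602, edgeR's quasi-likelihood test) was the highest of the list. Serpinb9b, at 1.39 (unadjusted p = 0.0497, adjusted p = 0.629, same test), had overlapping groups and was at 0.65 without DTR replicate 3. Serpina3g was lowest at −0.45 (adjusted p = 0.760, same test), and it was at −0.13 without DTR replicate 1 and −0.86 without DTR replicate 3.

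Of 13 tested cathepsins, 8 lay above 0 and 5 below, with a median of 0.10 and 0 past the test. Ctsz, a lysosomal carboxypeptidase, was at 225, 235 and 234 CPM in Ctrl and 221, 186 and 190 CPM in DTR, and Ctsa, also a carboxypeptidase, at 74.2, 82.9 and 72.8 CPM and 68.6, 65.2 and 72.0 CPM. Both had lower DTR libraries without overlap, and the log2 fold changes were −0.22 (unadjusted p = 0.0478, adjusted p = 0.624) and −0.16 (adjusted p = 0.666) by edgeR's quasi-likelihood test. They were 2 of 13 cathepsins, where 8.18% of all genes had lower groups without overlap, and Ctsa was chosen after its values were seen. The extremes of the family were Ctsw, a cathepsin of cytotoxic lymphocytes, at −1.17 and Ctsf at 0.78, both with overlapping groups and under 10 CPM in every library, and without DTR replicate 3 Ctsf was at 0.14. The T and NK cell markers summed to 6.0 to 41.0 CPM in Ctrl and 13.5 to 16.7 CPM in DTR, and their part in Ctsw was not tested.

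Of the cystatins and legumain, which inhibit and activate cathepsins, 5 were tested, 4 lay below 0 and 0 passed the test, from −0.55 for Cst7 to 0.14 for Cstb on the log2 scale. Of 24 other lysosomal genes 16 lay below 0 and 8 above, with a median of −0.10 and 0 past the test. Lamp2, a lysosomal membrane protein gene, was at 182, 180 and 192 CPM in Ctrl and 194, 241 and 263 CPM in DTR (log2 fold change 0.33, unadjusted p = 0.0219, adjusted p = 0.602, edgeR's quasi-likelihood test). Hexa, a hexosaminidase subunit gene, was at 207, 233 and 217 CPM in Ctrl and 186, 194 and 177 CPM in DTR (log2 fold change −0.24, unadjusted p = 0.0216, adjusted p = 0.602). Of the 24 genes, 3 had groups without overlap on the lower side (Hexa, Atp6v0d1 and Tfeb) and 2 on the higher side (Lamp2 and Npc2), where 8.18% and 6.32% of all genes did, and Atp6v0d1, Tfeb and Npc2 were named after their values were seen. With unadjusted p under 0.05 there were 1 of 24 genes lower and 1 higher, where 4.11% and 3.81% of all genes were.

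**Figure D5:**
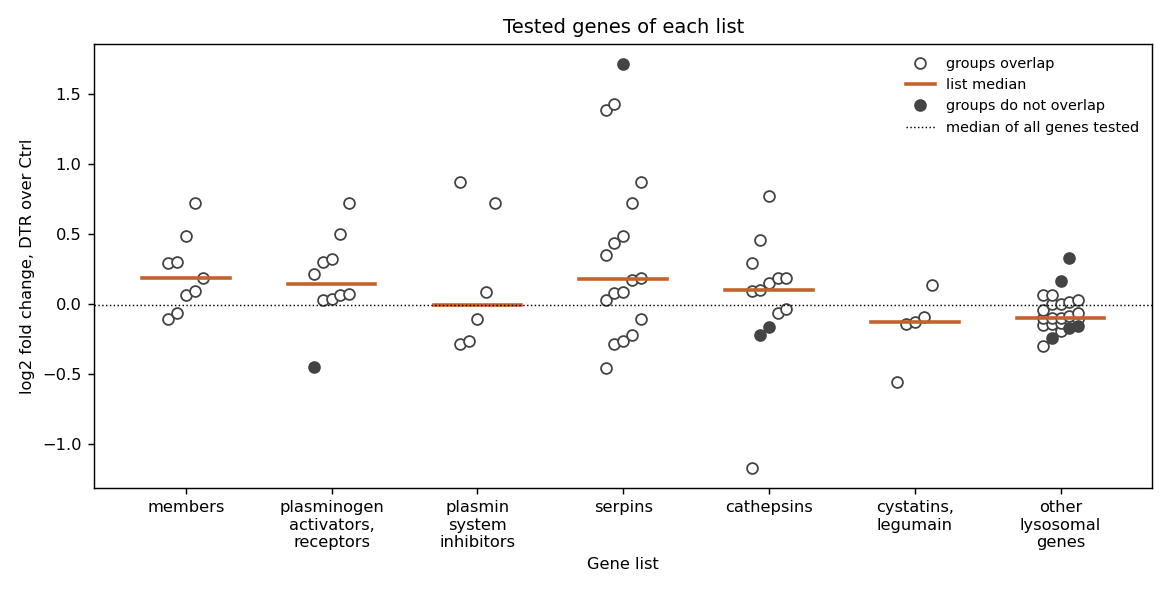
Log2 fold change of DTR over Ctrl for each tested gene of the lists, with filled points where the groups do not overlap, a bar at each list's median and a dotted line at the median of all genes tested. The medians lie between −0.13 for the cathepsin inhibitors and 0.19 for the 9 genes, and no gene passed the adjusted threshold.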

How the data were processed

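The 6 libraries were analysed, 3 Ctrl and 3 DTR, grouped by their labels. The authors deposited raw read counts for each gene, made per the submitters' processing notes with cutadapt 3.4, STAR 2.7.3a and featureCounts 2.0.1 on GRCm38, with strand taken into account. The same deposited table holds counts scaled by the authors (a score here, within a relative spread of 0.00121 of raw counts times a factor per library), log2 fold changes and p-values of the authors' comparison, and these were not used. Names missing for 27987 genes were filled from the annotation for 27841.

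Counts were fitted in R 4.3.3 with edgeR 4.0.16 (TMM, filterByExpr at 10 counts, quasi-likelihood test, two-sided, no covariate) over 15133 genes, with Benjamini-Hochberg adjustment over all of them. CPM were scaled by TMM, and exact permutation tests used log2 CPM with a pseudocount of 0.5. DESeq2 1.42.0 and limma voom (limma 3.58.1), other scalings and filters, a replicate block, a gene-span correction and leaving out each library were alternatives, and the scripts were tested on simulated data. Totals of 22339635 to 34271929 counts put 3 counts at 0.0875 to 0.134 CPM, and counting errors cover counting only. No 2 libraries agreed within sampling noise. The 9 genes and the lists were chosen with earlier results of these data known. Named genes were the members, Adam12, Pdgfra and Pdpn, list genes with an unadjusted p under 0.05 or an extreme fold change, the 3 nearest profiles of each member, and the top and absent markers, and 1 gene that the rule named is not reported here. The neutrophil markers summed to 1.69 to 7.68 CPM in Ctrl and 1.68 to 2.87 CPM in DTR, headed by Csf3r and with Ly6g at 0, and the 6 pericyte markers, headed by Mcam, to 46.8 to 74.6 CPM and 37.4 to 49.2 CPM. Cd3g headed the T and NK cell markers and Col3a1 the fibroblast markers. RefSeq promoters were at hand for 6 of 9 members, with none for Plau, Plat and Ctsb, and each was searched for 8 motifs. Those of Serpine2 and Ctsl are not printed. The first holds GC boxes, and the second an E-box (CACGTG) and the hypoxia response core. Figures were drawn with matplotlib 3.10.9 in Python 3.11.15.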

Additional observations from a re-analysis of the deposited data

How the results depend on the processing

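None of the 9 genes was called in any of the 18 fits of all genes. The number of all genes called was 0, and it was 31 by DESeq2, 0 to 2 with 1 library left out (2 without Ctrl replicate 1) and 3 without Ctrl replicate 1 and DTR replicate 3 together, a setting added after the data were seen, like the fibroblast covariate. At an unadjusted p under 0.05, all genes numbered 1199, 827 to 1604 with 1 library left out and 1810 with the loosest filter, and members numbered 0, 0 to 2 with 1 library left out (Plat and Serpinf1 without Ctrl replicate 1), 1 with the covariate (Plat) and 2 without both libraries (Plat and Serpinf1). With 1 library left out, signs turned for Plau (−0.15 to 0.61), Plaur (−0.23 to 0.24), Serpine2 (−0.40 to 0.48), Ctsb (−0.14 to 0.036), Ctsk (−0.44 to 0.40), Pdgfra (−0.026 to 0.83), Serpinb2 (−0.75 to 0.77) and Cst7 (−1.32 to 0.39) on the log2 scale. The covariate turned Plau to −0.042, Plaur to −0.0056, Ctsk to −0.30, Pdgfra to −0.040 and the medians of the members to −0.0056 and of the activators and receptors to −0.015, and voom turned Serpine2 to 0.036, Ctsk to −0.074 and Serpinb2 to 0.28. Without both libraries Serpine2 was 0.40, Ctsk −0.18, Ctss −0.080 and Serpinb2 0.80, and the median was 0.62 for the plasmin inhibitors and −0.080 for the cathepsins. Medians with 1 library left out ran from 0.01 to 0.46 for the members, −0.0094 (without DTR replicate 3) to 0.51 (without Ctrl replicate 1) for the activators and receptors, 0.026 to 0.18 for the cathepsins, −0.26 to 0.82 for the plasmin inhibitors, 0.041 to 0.45 for the serpins, −0.19 to 0.12 for the cystatins and −0.14 to −0.040 for the other lysosomal genes. With the longest transcript Plaur moved from place 8 to 9 and Serpine2 from 9 to 8. Deviations of same-numbered libraries correlated at 0.146, 0.162 and −0.065, and those of differently numbered libraries at −0.267 to 0.144. The labels do not say whether the replicate numbers pair the samples, and these few values cannot decide it. The fit with the replicate block called 0 genes, gave 1271 at an unadjusted p under 0.05, and turned Serpine2 to 0.049, Ctsk to −0.013 and Serpinb2 to 0.14. Of 424 recomputed log2 fold changes of named genes 25 changed sign, and of 119 recomputed list medians 15 did, 10 of them for the plasmin inhibitors, whose median lies near 0, and the causes were not tested.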
